A study of Sus scrofa with 8 samples.

Results

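Cell proliferation genes encode the machinery that copies the genome in S phase and divides it in mitosis. The list held 38 genes, chosen by name for these roles, and 35 of them matched a gene among the 22516 in the count and TPM tables. MKI67, AURKA and RRM2 matched no name and were not analysed here. Of the 35 genes, 12 act in S phase and 23 in G2 and mitosis, and all 35 were among the 21318 genes with at least 1 count that were tested. The libraries came from the olfactory epithelium (OE) of 4 sows aged 8 months, all in estrus and all crosses of Landrace boars with Rongchang sows. In the androstenone treatment group, Boarmate, a spray that mainly contains the boar pheromone androstenone, was applied to the nasal cavity of 2 sows, and the OE was collected 30 min later. The control group held 2 sows that received no solution at all, so that androstenone and the act of spraying cannot be told apart. The left and right OE of each sow gave separate libraries, 4 per group. The sources used here do not tie a library to a sow. Libraries therefore served as replicates, and since each group had 2 animals, the p-values measure in part the spread within an animal.

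In a dividing cell, E2F transcription factors switch on the S phase genes, the MCM helicase is loaded on DNA and activated by CDC45 and GINS, and PCNA clamps the polymerases to the template. CDK1 with cyclin B then drives mitosis, in which the spindle checkpoint keeps CDC20 from activating the anaphase-promoting complex until the chromosomes are attached. The OE is known for renewing its neurons throughout life from dividing basal cells. Lymphoid tissue and marrow also hold many dividing cells, and multiciliated cells are known to reuse parts of the mitotic machinery without dividing, when they amplify their centrioles.

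The deposited counts summed to 4177968 in control 1 and to between 81579983 and 100685797 in the other 7 libraries. Control 1 therefore carried the widest counting error, with 19 to 327 counts for each of the 35 genes. The paper lists a number of clean reads for its Control 1 that lies within the range of its other samples. Why the counts of control 1 were lower was not tested. Levels are given as CPM, the count relative to a library total that was multiplied by the TMM factor, which corrects for differences in composition, and comparisons between genes as TPM, which is scaled for transcript length. Since the tissue is bulk, fewer cells of a type and less RNA per cell cannot be told apart. The 7 markers of mature olfactory neurons summed to 84.9 to 277 CPM, of which STOML3 was the most abundant in every library. This sum was highest in control 3, androstenone 1 and androstenone 2 (277, 266 and 270.3 CPM). The summed genes of ciliated cells were highest in the same libraries (2345, 1544 and 1603 CPM). How much of the marker sum came from neurons was not tested. CNGA2, the olfactory cyclic nucleotide-gated channel, lay between 0.737 and 12.2 CPM and CNGA4, its partner subunit, between 0.185 and 1.70 CPM. The 7 markers of neuronal progenitors, the cells that divide to form neurons in the OE, summed to 47.8 to 77.9 CPM in the control and 79.3 to 107 CPM in the androstenone libraries. These sums did not overlap in CPM, by a narrow gap. In TPM they overlapped, at 34.5 to 67.5 TPM in the control and 55.4 to 71.6 TPM in the androstenone libraries. None of the 7 markers separated the groups on its own in CPM, and none passed the cutoff used below. Most of the summed CPM came from HES6, KIT and LGR5, while the factors NEUROG1 and NEUROD1 reached at most 0.0764 and 0.205 CPM. The part of these cells in the results was not tested. Bone markers stood out in control 4, where 8 osteoblast genes summed to 11776 CPM, against 91.0 to 501 CPM in the other 7 libraries.

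Every one of the 35 genes was detected in every library. By mean TPM over the 8 libraries, PCNA was the most abundant (58.4 TPM, from 24.3 to 88.3), followed by UBE2C (41.6 TPM, from 19.3 to 68.8) and CDC20 (40.6 TPM, from 9.44 to 103.9). These ranges overlapped, and the order of these neighbours did not exceed the spread between libraries. At the other end lay CENPF (2.87 TPM) and CDC6 (1.24 TPM, from 0.625 to 2.51). The median of the mean levels was 16.7 TPM for the S phase genes and 10.1 TPM for the mitosis genes, against 7.21 TPM for all genes tested.

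The summed level of the S phase genes was 325, 642, 225 and 251 CPM in control libraries 1 to 4 and 358, 377, 494 and 649.6 CPM in androstenone libraries 1 to 4. The groups overlapped widely, because control 2 lay at the level of androstenone 4. The summed level of the mitosis genes was 353, 701, 328 and 300.4 CPM in the control libraries and 590.4, 642, 680.1 and 791 CPM in the androstenone libraries. Here 3 of the 4 control libraries lay below every androstenone library and control 2 lay above 3 of them. The group levels were 361 ± 192 and 469 ± 134 CPM (SD, n = 4 libraries each) for the S phase genes and 420 ± 188 and 676 ± 85.0 CPM for the mitosis genes, log2 ratios of 0.38 and 0.68. The heat map of all 35 genes shows control 2 apart from the other control libraries among both the S phase and the mitosis genes.

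**Figure D1:**
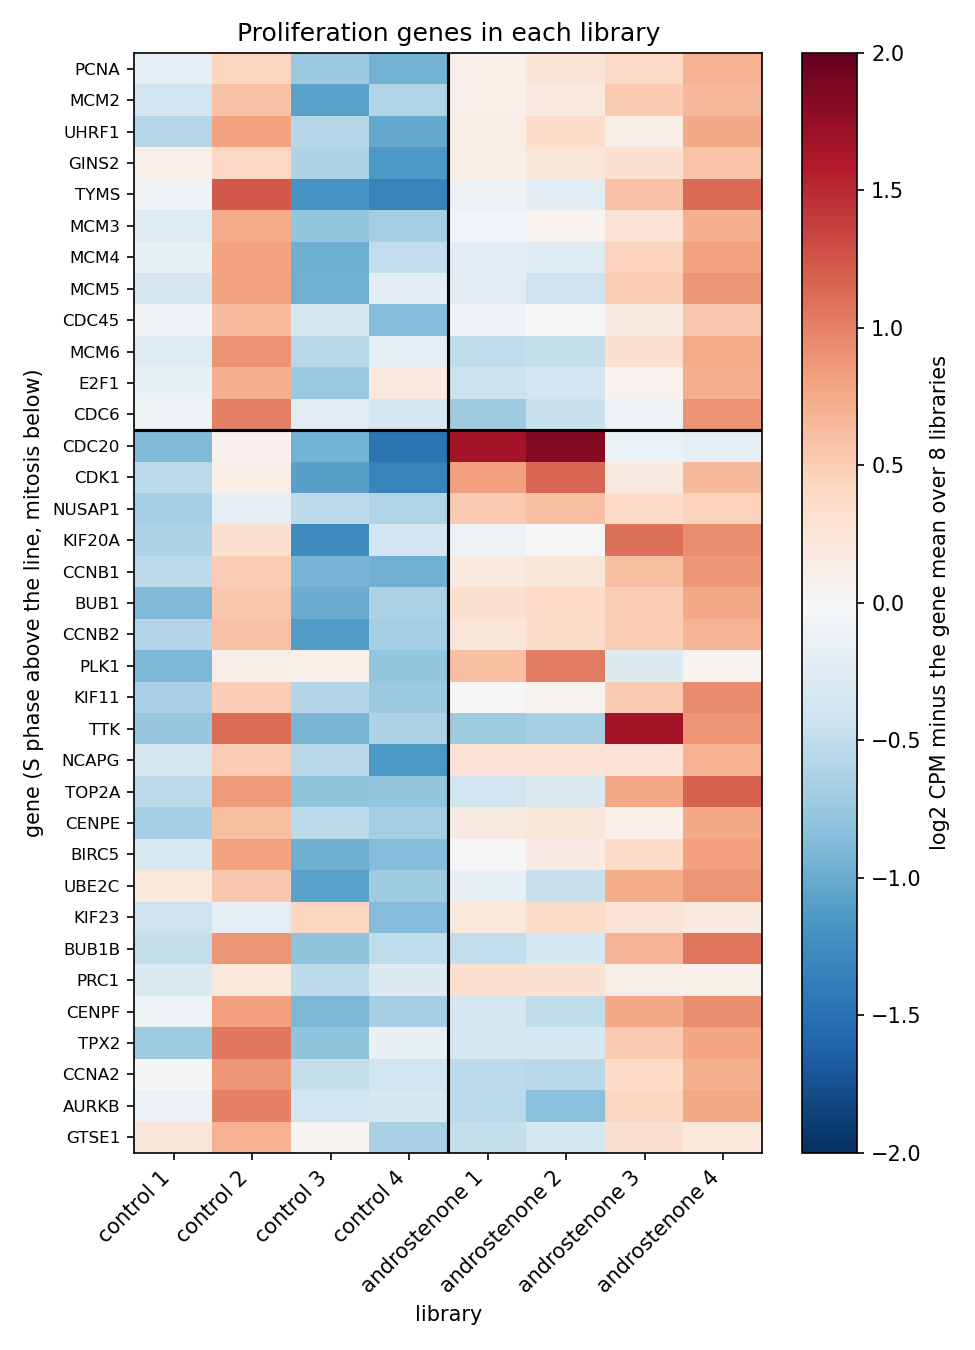
Level of each of the 35 proliferation genes (rows, S phase genes above the line and mitosis genes below) in the 8 libraries (columns), as log2 CPM minus the mean of that gene over the libraries. Control 2 and androstenone 4 are red in every S phase gene, and CDC20, CDK1 and PLK1 are reddest in androstenone 1 and androstenone 2.

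To ask which genes changed after the spray, the groups were compared with edgeR's quasi-likelihood test over all genes, with a cutoff on the unadjusted p (below 0.05) and on the fold (log2 value of 1 or more in size). At this cutoff 2 of the 23 mitosis genes, CDC20 and CDK1, were higher in the androstenone treatment group, 0 were lower, and 0 of the 12 S phase genes passed in either direction. Of all genes tested, 2.04% passed upward and 4.38% downward, 6.42% in all. With no minimum fold, 6 mitosis genes passed at p below 0.05, all upward (NUSAP1, CDK1, CDC20, CCNB1, KIF20A and BUB1), against 5.09% of all genes upward and 6.24% downward, and 0 S phase genes. Among the 18347 genes left by a filter on low counts, 5.52% passed upward at p below 0.05 and 1.97% also passed the fold. After Benjamini-Hochberg adjustment over all genes, 0 of the 35 passed in this test and 0 genes of the whole table, with a smallest adjusted p among the 35 of 0.342 for NUSAP1. The likelihood ratio test and edgeR's exact test passed NUSAP1 after the same adjustment (adjusted p of 0.0126 and 0.0162), and DESeq2 passed NUSAP1 and CDK1 (adjusted p of 1.04e-06 and 0.0318). Of all 21318 genes, 200 passed after adjustment in the likelihood ratio test, 157 in the exact test and 670 in DESeq2. The median log2 fold change, androstenone over control, was 0.61 for the mitosis genes and 0.36 for the S phase genes, beside -0.021 for all genes. Fitted values lay above 0 for 21 of 23 mitosis genes and 10 of 12 S phase genes, beside 48.2% of all genes. These genes are known to be expressed together in cycling cells, so they are not independent of each other.

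**Figure D2:**
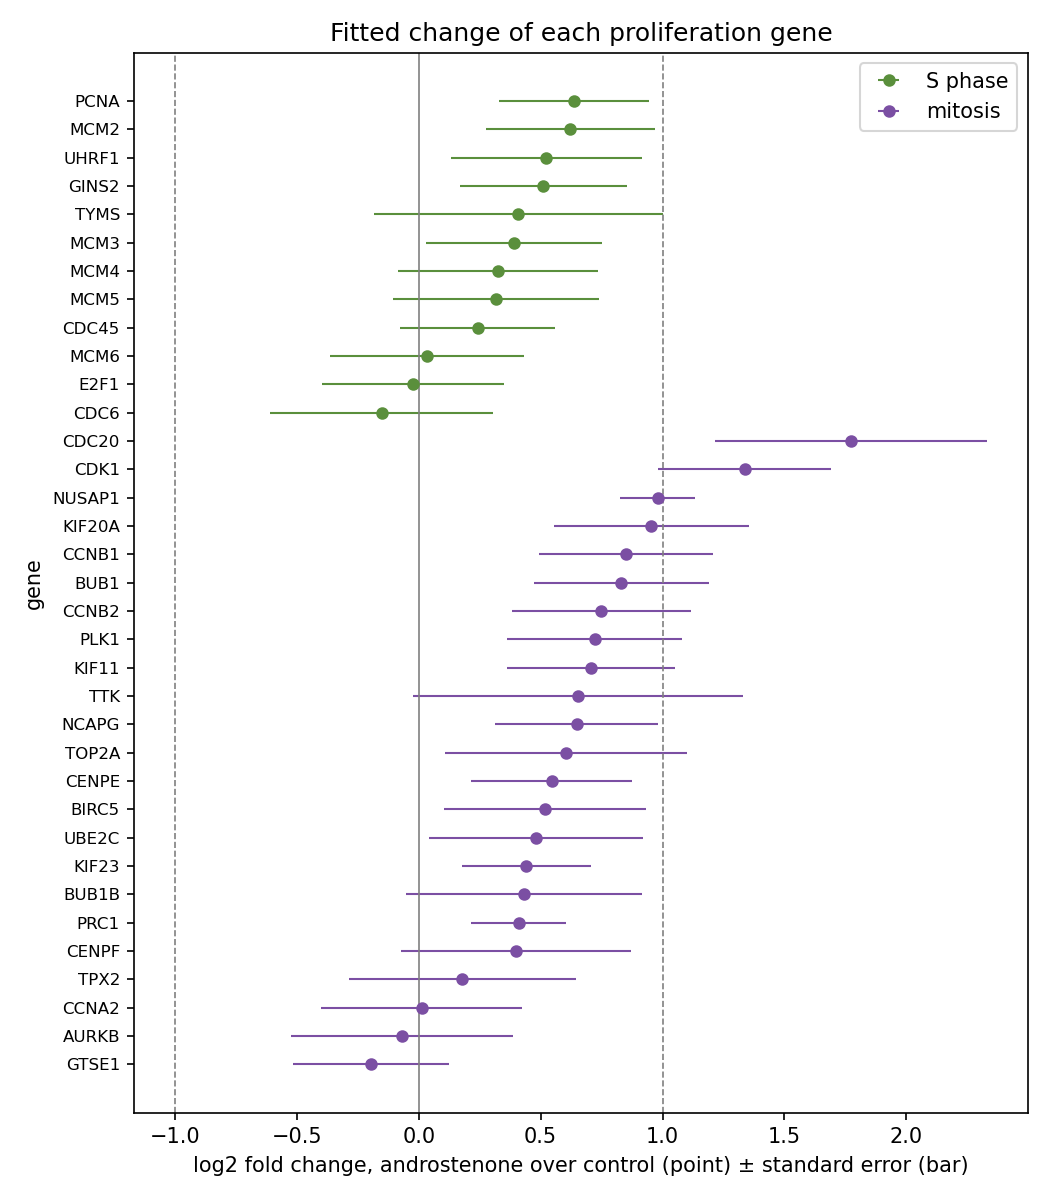
Fitted log2 fold change of each of the 35 genes (points, androstenone over control) with its standard error (bars), where dashed lines mark a log2 fold change of 1 in either direction. Only CDC20 and CDK1 lie past the line at 1, NUSAP1 lies just inside it with the shortest bar, and the S phase genes lie between -0.15 and 0.64.

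Control 2 decided the counts. Without it, 11 of the 23 mitosis genes passed the cutoff (CDC20, CDK1, NUSAP1, KIF20A, CCNB1, CCNB2, BUB1, KIF11, TOP2A, BIRC5 and NCAPG), as did 3 of the 12 S phase genes (MCM2, TYMS and UHRF1), all upward, against 1.99% of all genes. With any other single library left out, 2 or 3 mitosis genes and 0 S phase genes passed, against 1.24% to 4.48% of all genes upward. With control 1 and control 4 left out together, 1 mitosis gene (CDK1) passed, against 0.97% of all genes upward. With androstenone 1 and androstenone 2 left out together, 1 mitosis gene (KIF20A) passed, against 1.48%. These last 2 settings were chosen after seeing the data.

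The MCM genes encode subunits of the replicative helicase. MCM2 was at 27.9, 55.0, 17.4 and 24.0 CPM in the control libraries and 39.2, 42.1, 52.7 and 57.5 CPM in the androstenone libraries. The groups overlapped through control 2 (log2 fold change 0.62, standard error or SE 0.35, adjusted p = 0.511 in edgeR's quasi-likelihood test). MCM3, MCM4 and MCM5 had log2 fold changes of 0.39, 0.32 and 0.32, and MCM6 of 0.034, with SEs of 0.36 to 0.42. Of the factors that load and start the helicase, CDC6 had a log2 fold change of -0.15, CDC45 of 0.24 and GINS2 of 0.51 (SEs 0.46, 0.32 and 0.34).

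PCNA, the sliding clamp of the DNA polymerases, was at 67.2, 102, 45.3 and 39.6 CPM in the control libraries and 82.0, 91.2, 98.8 and 123 CPM in the androstenone libraries. Control 2 lay above 3 androstenone libraries, and the log2 fold change was 0.64 (SE 0.31, adjusted p = 0.468 in the same edgeR test), the highest among the S phase genes. TYMS, which makes thymidylate for DNA synthesis, spread most of the S phase genes, with 29.0, 71.1, 13.5 and 12.1 CPM in the control and 28.2, 26.0, 45.8 and 66.9 CPM in the androstenone libraries. Its highest library was 5.90 times its lowest, and the androstenone libraries lay within the range of the control libraries. UHRF1, which keeps DNA methylation on newly copied strands, had a log2 fold change of 0.52 (SE 0.39). E2F1, the transcription factor that activates S phase genes, was at 13.4, 24.1, 8.90 and 17.0 CPM in the control libraries and 10.97, 11.4, 15.5 and 24.6 CPM in the androstenone libraries. The group means of E2F1 were 15.8 ± 6.44 and 15.6 ± 6.34 CPM (SD, n = 4 each). The log2 fold change was -0.024 (SE 0.37) and became 0.032 with library totals not scaled by TMM.

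CDK1, the kinase that drives entry into mitosis, is placed by the RefSeq annotation of Sscrofa11.1 on chromosome 14, from 64233945 to 64255290. It was at 16.0, 25.1, 10.9 and 9.11 CPM in the control libraries and 40.8, 51.3, 26.0 and 36.2 CPM in the androstenone libraries. In CPM every androstenone library lay above every control library, with a narrow gap between control 2 and androstenone 3. Of all genes tested, 3.89% separated in CPM in this direction and 2.64% in the other. In TPM the groups of CDK1 overlapped, with 24.1 TPM in control 2 and 21.4 TPM in androstenone 3. In control 1 there were 78 reads (95% exact interval from 12.67 to 19.997 CPM, which covers counting error only). CDK1 rose by a log2 fold change of 1.34 (SE 0.35, unadjusted p = 0.0049 and adjusted p = 0.393 in edgeR's quasi-likelihood test). With any single library left out the unadjusted p was between 0.000751 and 0.0155, and with libraries added up into sows, in each of the 9 ways to pair them, it was between 0.00946 and 0.0843, so that 6 of 9 pairings kept the call.

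The cyclins that partner CDK1 had lower fitted values than CDK1, a difference that was not tested. CCNB1, a mitotic cyclin, was at 13.4, 26.9, 10.02 and 9.85 CPM in the control and 22.0, 22.6, 29.2 and 34.8 CPM in the androstenone libraries. Its log2 fold change was 0.85 (SE 0.36, unadjusted p = 0.0423, adjusted p = 0.435 in edgeR's quasi-likelihood test), under the cutoff of 1, and control 2 lay among the androstenone libraries. CCNB2, the other B-type cyclin, had a log2 fold change of 0.75 (SE 0.37). CCNA2, the cyclin of S phase and G2, had group means of 13.5 ± 6.54 and 13.6 ± 5.97 CPM (log2 fold change 0.013, SE 0.41).

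CDC20, which activates the anaphase-promoting complex, is on chromosome 6, from 167886266 to 167890587. It was at 17.7, 34.5, 16.9 and 11.8 CPM in the control libraries and 103, 116, 29.8 and 28.5 CPM in the androstenone libraries. Androstenone 1 and androstenone 2 stood far above all other libraries, while androstenone 3 and androstenone 4 lay below control 2, so that the groups overlapped. CDC20 rose by a log2 fold change of 1.77 (SE 0.56, unadjusted p = 0.0121 and adjusted p = 0.403 in edgeR's quasi-likelihood test), the highest value among the 35 genes. Without androstenone 1 and androstenone 2 the log2 fold change was 0.50 (unadjusted p = 0.29 in edgeR's quasi-likelihood test), and with counts summed per sow 6 of 9 pairings kept the call. UBE2C, the ubiquitin-conjugating enzyme of the same complex, had a log2 fold change of 0.48 (SE 0.44), with androstenone 1 and androstenone 2 at 13.2 and 10.8 CPM and androstenone 3 and androstenone 4 at 24.5 and 27.1 CPM.

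NUSAP1, a microtubule-binding protein of the spindle, lies on chromosome 1 from 129992797 to 130065641. It was at 28.1, 39.3, 31.3 and 29.4 CPM in the control libraries and 64.4, 67.8, 59.2 and 61.6 CPM in the androstenone libraries. The groups did not overlap and the gap between them was larger than the range within either group. Its group means were 32.0 ± 5.02 and 63.3 ± 3.70 CPM (SD, n = 4 each), and its log2 fold change of 0.98 had the smallest SE among the 35 genes (0.15, unadjusted p = 0.000165 in edgeR's quasi-likelihood test). It missed the cutoff on the fold alone. Its unadjusted p stayed below 0.05 with each library left out (between 0.000101 and 0.000912) and in all 9 pairings of libraries into sows (between 0.00351 and 0.0291). NUSAP1 and CDK1 were the only 2 of the 35 genes whose groups did not overlap in CPM, and in TPM those of CDK1 did. Of all genes tested, 3.89% separated in CPM with the androstenone libraries above and 2.64% with them below.

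**Figure D3:**
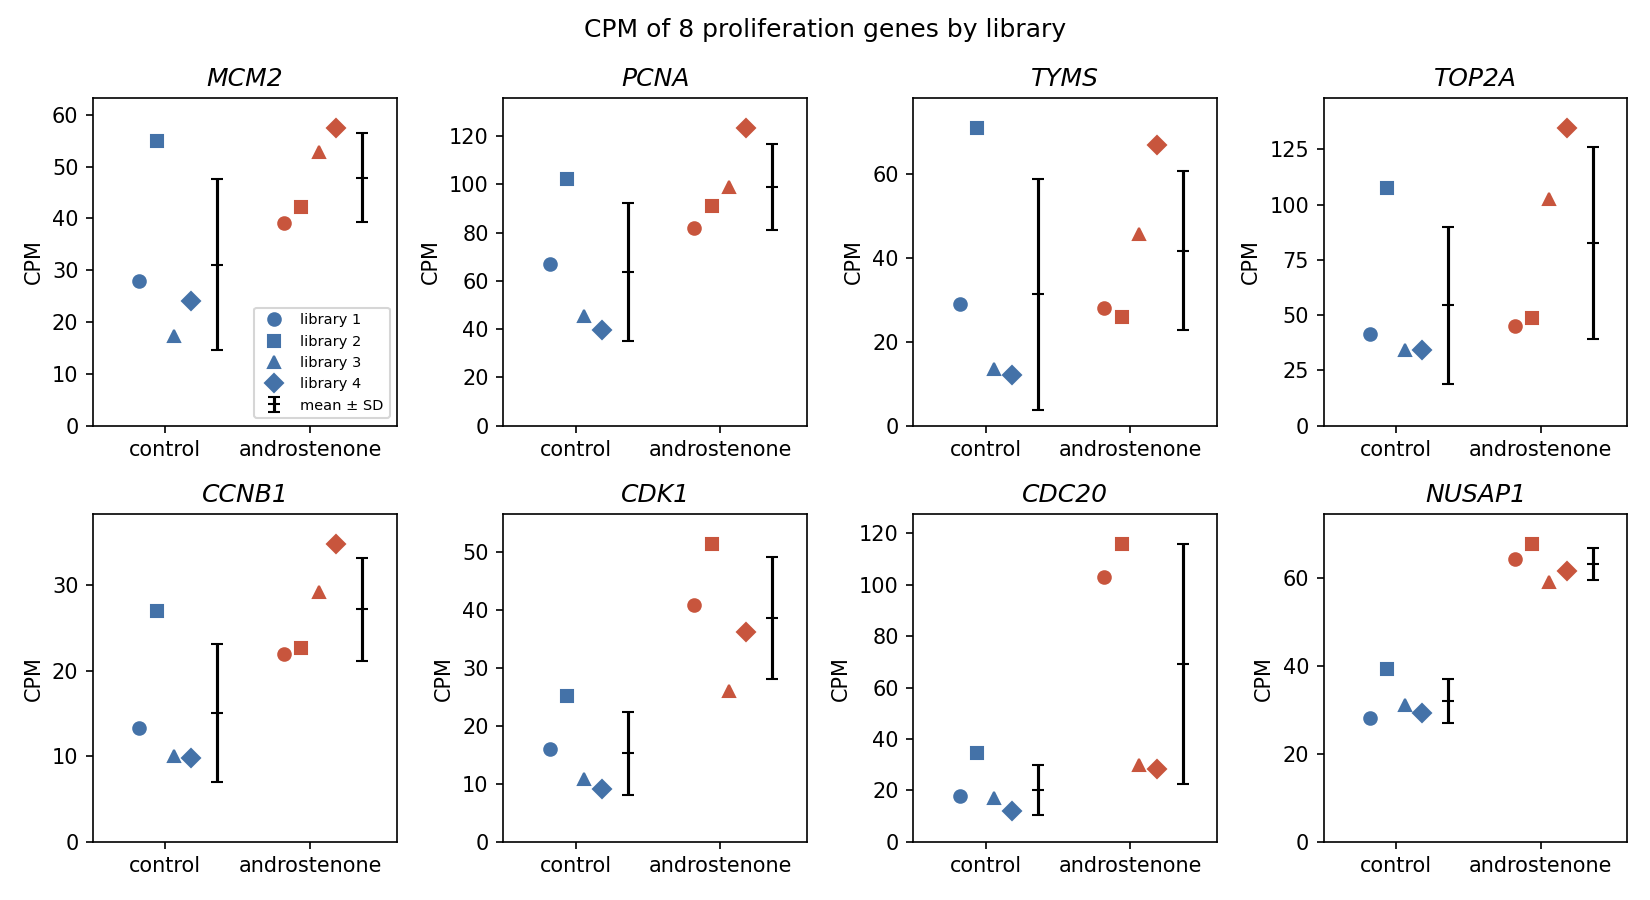
CPM of 8 genes in the 4 control and 4 androstenone libraries (coloured symbols, the shape gives the library number) with the group mean and SD (black). NUSAP1 and CDK1 separate the groups, CDC20 is high only in androstenone 1 and androstenone 2, and control 2 (blue square) lies among the androstenone libraries in MCM2, PCNA, TOP2A and CCNB1 and above them in TYMS.

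TOP2A, the topoisomerase that untangles sister chromatids, was at 41.5, 107.5, 34.2 and 34.4 CPM in the control and 45.2, 48.9, 102 and 135 CPM in the androstenone libraries. Control 2, androstenone 3 and androstenone 4 were high and the other 5 libraries low, which does not follow the groups (log2 fold change 0.61, SE 0.50, adjusted p = 0.639 in edgeR's quasi-likelihood test). NCAPG, a condensin subunit that compacts chromosomes, had a log2 fold change of 0.65 (SE 0.33).

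AURKB, the kinase of the chromosomal passenger complex, was at 12.1, 26.3, 9.98 and 10.4 CPM in the control libraries and 9.04, 7.30, 17.6 and 22.4 CPM in the androstenone libraries. BIRC5, its survivin subunit, was at 12.3, 26.6, 7.74 and 8.35 CPM in the control and 15.1, 17.1, 19.8 and 26.9 CPM in the androstenone libraries. The log2 fold changes were -0.068 (SE 0.46) and 0.52 (SE 0.42), and both groups overlapped in both genes. Among the other mitotic kinases, BUB1 of the spindle checkpoint had a log2 fold change of 0.83 (SE 0.36, unadjusted p = 0.0477 in edgeR's quasi-likelihood test) and its relative BUB1B of 0.43 (SE 0.48). TTK, which starts checkpoint signalling, was highest in androstenone 3 (20.9 CPM) and between 3.5 and 14.4 CPM in the other 7 libraries. PLK1, which acts from centrosome maturation to cytokinesis, was at 40.8 and 55.3 CPM in androstenone 1 and androstenone 2, at 22.2 and 28.4 CPM in androstenone 3 and androstenone 4, and between 14.4 and 29.6 CPM in the control libraries (log2 fold change 0.72, SE 0.36).

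Of the kinesin motors, KIF20A, which acts in cytokinesis, had a log2 fold change of 0.95 (SE 0.40, unadjusted p = 0.0427 in edgeR's quasi-likelihood test), with androstenone 3 and androstenone 4 highest at 39.6 and 34.8 CPM. KIF11, which pushes the spindle poles apart, had a log2 fold change of 0.70 (SE 0.35). KIF23 of the central spindle was highest in control 3, at 37.3 CPM, where most other mitosis genes were low. The kinetochore proteins CENPE and CENPF had log2 fold changes of 0.55 and 0.40, the spindle factors PRC1 and TPX2 of 0.41 and 0.18, and GTSE1, a microtubule-binding protein of G2, of -0.20, none with p below 0.05.

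The 35 genes did not vary as one block across the libraries. In all 12 S phase genes, the highest pair of libraries was control 2 and androstenone 4, which held for 11 of the 23 mitosis genes (TOP2A, CCNA2, CCNB2, BUB1, BUB1B, AURKB, CENPE, CENPF, TPX2, BIRC5 and NCAPG) and for 5.27% of all genes tested. In 5 mitosis genes, CDC20, CDK1, PLK1, NUSAP1 and PRC1, 21.7% of them, the highest pair was androstenone 1 and androstenone 2, as in 13.5% of all genes. In CCNB1, KIF11, KIF20A and UBE2C, 17.4% of the mitosis genes, it was androstenone 3 and androstenone 4, as in 7.09% of all genes. The pattern was seen in these libraries first and then counted in them, so it is a description. The lowest library was control 3 or control 4 for 11 of the 12 S phase and 19 of the 23 mitosis genes, beside 2839 and 3086 of the 21318 genes tested.

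Ratios between genes within a library do not depend on the library total. Those given here were chosen with earlier results known, and they did not all follow the same pattern. In TPM, the control libraries had 1.73, 1.68, 2.21 and 1.57 CDC20 per CCNB1, against 6.13 and 6.69 in androstenone 1 and androstenone 2, and 1.34 and 1.07 in androstenone 3 and androstenone 4. The ratio of CDK1 to CCNA2 was 0.931 to 1.26 among the controls, and 4.54, 5.84, 1.52 and 1.71 in androstenone 1 to 4, so that the groups did not overlap. AURKB over BIRC5 also separated the groups, with 0.827, 0.832, 1.08 and 1.05 in controls 1 to 4 against 0.504, 0.358, 0.746 and 0.700 in androstenone 1 to 4. PLK1 over CCNB1 was highest in control 3, with 0.434, 0.445, 1.17 and 0.646 in controls 1 to 4 against 0.751, 0.987, 0.308 and 0.330 in androstenone 1 to 4. NUSAP1 over TOP2A was 2.21 and 2.15 in androstenone 1 and androstenone 2 and between 0.566 and 1.42 in the other 6 libraries. PCNA over MCM6 was 3.31 and 3.59 in that pair and between 1.28 and 2.30 in the other 6. In contrast, CCNB2 over CCNB1 stayed between 0.463 and 0.642 in all 8 libraries. The summed CPM of the mitosis genes over that of the S phase genes ranged from 1.08 to 1.45 among the controls, and was 1.65, 1.71, 1.38 and 1.22 in androstenone 1 to 4.

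Some markers of other cell types had the same highest pairs of libraries, while the order of the remaining libraries differed. The 5 B cell markers measured (MS4A1, CD79A, CD79B, PAX5 and BLK) summed to 392, 667, 205 and 118 CPM in the control libraries and 136, 117, 191 and 719 CPM in the androstenone libraries, and in all 5 the highest pair was control 2 and androstenone 4. Of 6 germinal centre genes, 5 had the same highest pair, among them S1PR2, a receptor that keeps B cells in the germinal centre, at 106 CPM in control 2 and 78.1 CPM in androstenone 4 against 10.95 to 37.8 CPM in the other 6 libraries. None of these 11 genes passed the cutoff between the groups. In control 1 the B cell sum lay above those of androstenone 1 to 3, while the S phase sum lay below them (325 against 358, 377 and 494 CPM). The 8 genes of multiciliated cell differentiation had androstenone 1 and androstenone 2 as the highest pair, without exception. They summed to 1403 and 1769 CPM in these, against 322 and 365 CPM in androstenone 4 and androstenone 3 and 224 to 859 CPM in the control libraries. MCIDAS, the regulator that starts this programme, was at 123 and 180.2 CPM in androstenone 1 and androstenone 2 and between 4.63 and 18.8 CPM in the other 6 libraries. CCNO, a cyclin of centriole amplification, was at 125 and 168 CPM in this pair and between 3.23 and 15.7 CPM elsewhere. MCIDAS, CCNO and PLK4, the kinase that starts centriole duplication, passed the cutoff upward, and the other 5 did not. Of all genes tested, 2.04% passed upward. In control 3 the sum of the multiciliated genes lay above those of androstenone 3 and androstenone 4 (859 against 365 and 322 CPM). There CDC20 lay below these 2 libraries (16.9 against 29.8 and 28.5 CPM). The part of either set of cells in the levels of the proliferation genes was not tested.

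**Figure D4:**
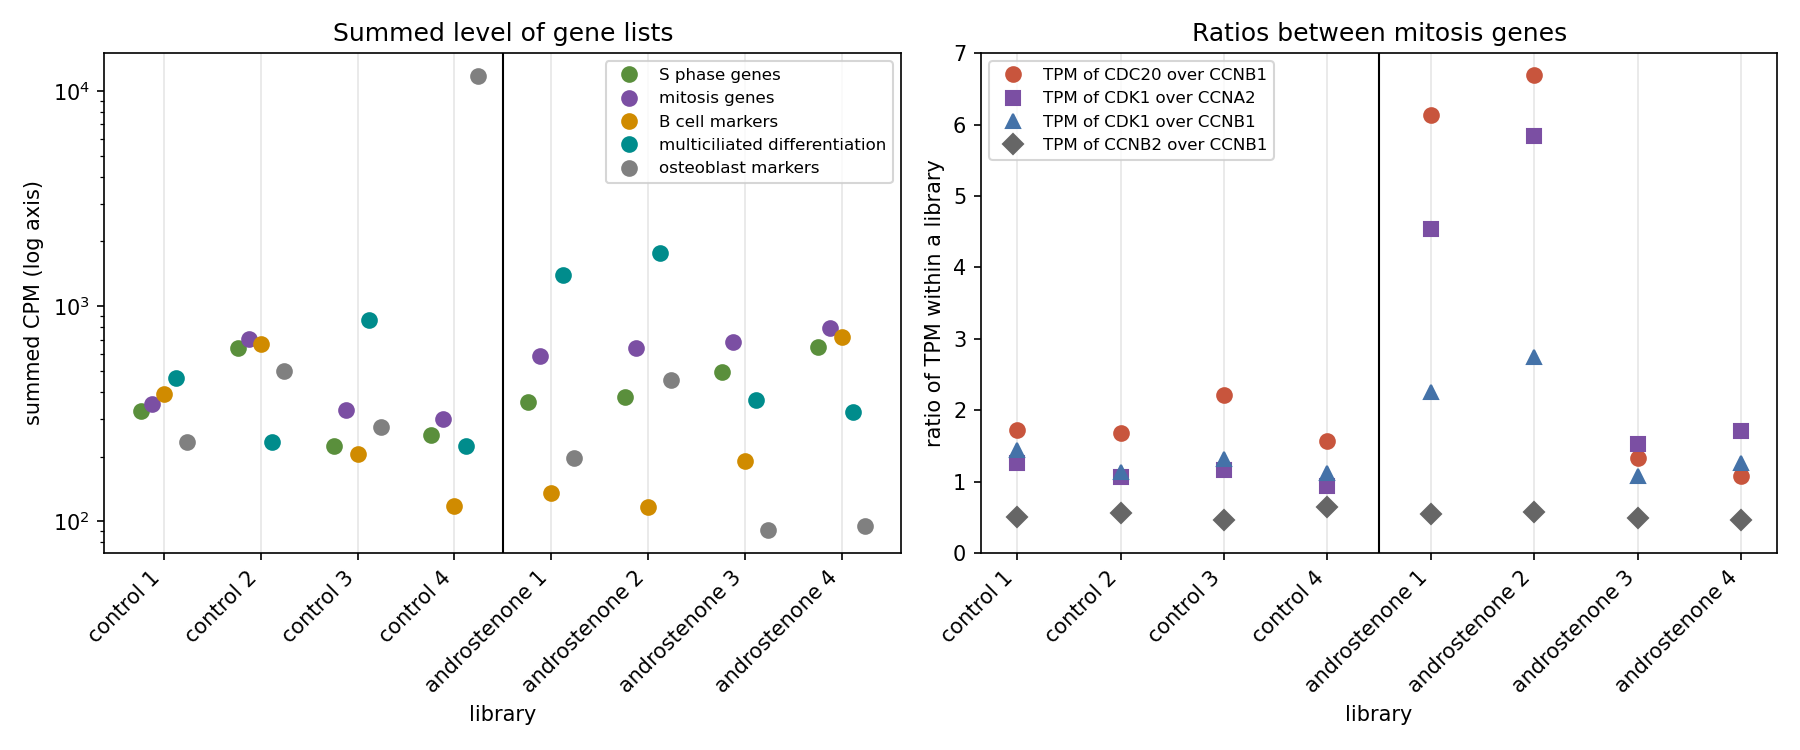
Left, summed CPM of 5 gene lists in each library (log axis); right, ratios of TPM between mitosis genes in each library. B cell markers are highest in control 2 and androstenone 4 together with the S phase genes, multiciliated differentiation genes are highest in androstenone 1 and androstenone 2 together with the ratios of CDC20 and CDK1 to cyclins, and osteoblast markers are highest in control 4.

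The remaining marker lists are given by their range of summed CPM over the control and then the androstenone libraries. Ciliated cell genes covered 431 to 2345 and 423 to 1603 CPM, and the horizontal basal cell markers KRT15, KRT17 and TP63 47.8 to 349.6 and 41.0 to 911 CPM. Immature neuron genes covered 5.49 to 16.3 and 5.79 to 15.3 CPM, and mature neuron genes 96.8 to 277 and 84.9 to 270.3 CPM. Plasma cell genes covered 1147 to 8172 and 5123 to 10045 CPM, and T cell genes 52.8 to 183 and 98.8 to 186 CPM. Erythroid precursor genes covered 26.9 to 193 and 17.1 to 83.0 CPM, and granulocyte precursor genes 7.13 to 9.29 and 7.06 to 9.02 CPM. Chondrocyte genes covered 53.3 to 2556 and 16.2 to 67.1 CPM. All 8 osteoblast genes passed the cutoff downward, and all 8 were highest in control 4. Their sum was 234, 501 and 275 CPM in controls 1 to 3 and 91.0 to 454 CPM in the androstenone libraries. Of 6 chondrocyte genes, 4 passed downward, with sums of 2556 CPM in control 4 and 53.3 to 575 CPM in the other controls. GAP43 of the immature neurons, SLC4A1 of the erythroid and CEBPE of the granulocyte precursors also passed downward. TNFRSF17 of the plasma cells and AZU1 of the granulocyte precursors passed upward. Of all genes tested, 4.38% passed downward and 2.04% upward.

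A wider set of cell cycle genes was counted in the same fit. Of 60 further mitosis genes, 3 passed the cutoff upward and 0 downward, 55 had fitted values above 0, and the median log2 fold change was 0.56, beside 2.04% of all genes passing upward, 4.38% downward and 48.2% above 0. The 3 were NEK2, a centrosome kinase, at 9.04 to 20.6 CPM in the control libraries and 78.3, 85.2, 24.3 and 22.7 CPM in the androstenone libraries, MAD2L1 of the spindle checkpoint (log2 fold change 1.00) and SGO2, which protects centromere cohesion (1.12). Of 46 further S phase genes, 2 passed upward and 0 downward, with a median log2 fold change of 0.28. They were CDT1, which licenses origins (log2 fold change 1.15, SE 0.39), and CHAF1B, a subunit of chromatin assembly factor 1 (1.48, SE 0.50). None of the 5 passed after adjustment in edgeR's quasi-likelihood test. Without control 2, 25 of the 60 mitosis and 4 of the 46 S phase genes passed the cutoff, beside 1.99% of all genes upward. Without control 1 and control 4 together 0 of either list passed, beside 0.97% of all genes upward.

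Among 21 regulators of the cycle, 1 passed the cutoff upward, where 2.04% of all genes did. E2F7, which represses E2F targets, was at 11.3, 10.8, 17.4 and 7.35 CPM in the control libraries, 105 and 137 CPM in androstenone 1 and androstenone 2, and no higher than 20.6 CPM in the other androstenone libraries. The groups did not overlap in CPM, as in 3.89% of all genes in this direction. Even so, androstenone 3 and androstenone 4 lay close to the controls (log2 fold change 2.59, SE 0.68, adjusted p = 0.393 in edgeR's quasi-likelihood test). MYBL2 and FOXM1, activators of mitosis genes, had log2 fold changes of -0.14 and 0.65, and CCND1, the cyclin of G1, of -0.50, with SEs of 0.63, 0.49 and 0.40. Without androstenone 1 and androstenone 2, 0 of the 21 regulators passed, where 1.48% of all genes did upward. Of 18 inhibitors of the cycle, 0 passed. The CDK inhibitors CDKN1A, CDKN1B and CDKN1C had log2 fold changes of -0.087, -0.18 and -1.04, with SEs of 0.49, 0.25 and 0.61. CDKN1A was lowest in control 2 and androstenone 4, at 33.7 and 33.0 CPM, where the S phase genes were highest, and reached 120.2 CPM in control 3.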

How the data were processed

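RNA-seq of the OE was analysed in 8 libraries, 4 per group. Per the submitters' processing notes, reads were trimmed by fastp 0.23.1 and Kallisto 0.48.0 assigned them to transcripts of the pig build Sscrofa11.1. The authors deposited 2 gene tables, an estimated count without normalization and a TPM value, which corrects for transcript length and depth. The sources used here do not state how transcript values became gene values.

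Estimated counts were rounded. All genes with a count in any library (sum of at least 1) entered a quasi-likelihood fit in edgeR 4.0.16, R 4.3.3, with TMM factors and condition as the only term. The test was checked on simulated data. A name table matched 15527 of the 22516 genes. Coordinates are from RefSeq for Sscrofa11.1. Genes given library by library were TOP2A, CDK1, CCNB1, BIRC5, AURKB, MCM2, PCNA, TYMS, E2F1 and each member called or without overlap between the groups. Of the other cycle lists, called genes and 6 regulators were named with their fold changes. The members, lists and tests were chosen with earlier results of these data known. Promoter sequences were not analysed here, and some marker genes are not reported here. Alternatives used DESeq2 1.42.0 and limma 3.58.1.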

Additional observations from a re-analysis of the deposited data

Results flagged for a closer look

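In a group of 4 libraries, a library was looked at again where its gap to the nearest other library, divided by the range of the group, exceeded the 95% critical value of Dixon. Of 112 groups screened (the 35 genes and 21 list sums in each condition), 16 did so, and chance alone gives about 1 in 20. The genes share libraries and are expressed together, so these are not independent.

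Control 2 was high against the other control libraries in 9 genes and 2 sums. The gap ratio was 0.851 for UHRF1, 0.879 for CDC6, 0.90 for TOP2A, 0.850 for BUB1, 0.885 for BUB1B, 0.869 for AURKB, 0.931 for TTK, 0.925 for CENPE and 0.915 for KIF11. It was 0.869 for the summed mitosis genes, at 701 CPM against 300.4 to 353 CPM, and 0.840 for the sum of all 35 genes.

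Androstenone 4 was high in its group for CENPE (0.831) and NCAPG (0.966). It was also high for the summed B cell markers (0.878, at 719 CPM against 117 to 191 CPM) and for the immature neuron markers (0.918, at 15.3 CPM against 5.79 to 6.57 CPM). Control 4 was high for the osteoblast markers (0.977).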

How the results depend on the processing

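The 11 genes given library by library were refitted under each alternative, and 227 of 253 values kept their direction and side of the cutoff. CDK1 and CDC20 passed under every other tool, normalization, filter and TPM pseudocount (0.1 and 1) and with each library left out. Of the 35 genes, 26 changed sign under no alternative, and the 9 that did had log2 fold changes of at most 0.41 in size. Leaving out pairs of libraries was added after seeing the data.

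Over all genes, 1368 passed the cutoff. The count was 727 and 321 with limma on log2(TPM + 0.1) and log2(TPM + 1), 881 without control 1 and control 4, 813 without androstenone 1 and androstenone 2, at the lowest 368 with libraries summed per sow, and 867 to 2414 with 1 library left out (867 without androstenone 1, 881 without androstenone 2, 2414 without control 3). The mitosis genes that passed were 2, then 1 without either pair, 0 at the lowest per sow, and 2 to 11 with 1 library left out. For the S phase genes the count was 0 to 3 with 1 library left out. The median log2 fold change of the mitosis genes was 0.44 to 1.04 with 1 library left out, highest without control 2.

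Without androstenone 1 and androstenone 2, the log2 fold change of CDK1 was 1.00, that of CDC20 0.50, that of AURKB 0.41 and that of E2F1 0.32. Without control 1 and control 4, CDC20 was at 1.40 and TYMS at -0.053. Summed per sow, the lowest value was 1.13 for CDK1 and -0.0037 for TYMS, and the highest 1.90 for CDC20, 0.0069 for AURKB and 0.086 for E2F1. E2F1 was at 0.032 with library size only. With 1 library left out, AURKB ranged from -0.38 to 0.38 and E2F1 from -0.33 to 0.26. Of these settings, CDK1 missed the cutoff without androstenone 1 and androstenone 2, and CDC20 missed it there and without control 1 and control 4, where CDK1 passed. In 6 of the 9 pairings into sows each of them passed. The cause was not tested.

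Replicate numbers are shared by the groups, but each group held its own sows, so a number cannot join libraries of 1 sow across groups. Deviations from the group means correlated at -0.035, -0.50, -0.60 and 0.17 between same-numbered libraries. No library correlated best with its own number. With the replicate block, 583 genes passed, 2 mitosis genes among them and 0 S phase genes. Adjusted p below 0.05 was reached by 157 genes in edgeR's exact test, 200 in its likelihood ratio test, 670 in DESeq2 and 0 in the quasi-likelihood test, where 1085 rose and 1330 fell at an unadjusted p below 0.05. Depth limits control 1, where 3 counts equal 0.718 CPM on the library total before scaling by TMM.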

Other observations

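The highest pair of libraries was also counted in cycle genes outside the list. The highest pair of libraries was control 2 and androstenone 4 in 31 of 60 further mitosis genes, among them the condensin subunits NCAPH, NCAPD2 and NCAPG2 and the centromere histone CENPA. It was the highest pair in 23 of 46 further S phase genes, among them MCM7, MCM10, ORC1, FEN1 and LIG1, which act in licensing, lagging-strand processing and ligation. This pair was highest in 5.27% of all genes tested. The highest pair was androstenone 1 and androstenone 2 in 10 further mitosis genes (CENPI, CENPU, SGO2, KIF2C, KIF14, NEK2, CKS2, OIP5, SKA3 and KPNA2) and 6 further S phase genes (CDT1, PRIM2, RFC2, CHAF1B, BRCA1 and CCNE1). These are 16.7% and 13.0% of the lists, near the 13.5% of all genes. It was androstenone 3 and androstenone 4 in 11 further mitosis genes (18.3%) and 6 further S phase genes (13.0%), against 7.09% of all genes. The genes were named after their values were seen.

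GINS3, a subunit of the same helicase activator as GINS2, was lower in the androstenone libraries. It was chosen after its values were seen, and was at 8.63, 9.20, 8.44 and 9.49 CPM in the control libraries and 6.95, 6.10, 6.43 and 6.11 CPM in the androstenone libraries. The groups did not overlap, as in 2.64% of all genes in this direction (log2 fold change -0.48, standard error 0.18, adjusted p = 0.416 in edgeR's quasi-likelihood test).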
